A study of Mus musculus with 9 samples.

Results

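The genes described here encode the nuclear-encoded subunits of the oxidative phosphorylation system. They were taken as every gene name in both expression tables that starts with Nduf and a, b, c, s or v, Uqcr, Cox4 to Cox8, or Atp5, or that is Sdha, Sdhb, Sdhc or Sdhd, and that had at least 10 counts in each of the 9 libraries. Of 21553 genes with counts, 91 names matched and 87 passed; Cox6b2, Cox8b, Cox8c and the pseudogene Atp5l-ps1 had too few counts. By known function, 80 of the 87 are subunits: 36 of complex I (7 of its catalytic core and 29 accessory), the 4 of complex II, 8 of complex III, 17 of complex IV and 15 of complex V. The other 7 share the name only: Ndufaf1 to Ndufaf4 are assembly factors of complex I, Atp5sl (now Dmac2) is linked to complex I assembly, Atp5s encodes coupling factor B, and Cox4nb is an older name of Emc8, a subunit of the endoplasmic reticulum membrane complex. Ndufa4 and its paralog Ndufa4l2 were placed with complex IV, where the Ndufa4 protein is found.

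Complexes I to IV pass electrons from NADH and succinate to oxygen within the inner mitochondrial membrane. Complexes I, III and IV pump protons as they do so, and complex V, the ATP synthase, makes ATP as the protons flow back. Complex II is encoded entirely in the nucleus, whereas each of the other complexes also holds subunits translated inside the mitochondrion from its own genome, so nuclear and mitochondrial genes must supply the parts together. Several complex IV subunits exist as paired isoforms used in different tissues or oxygen conditions, and the nuclear respiratory factors NRF1 and GABPA, together with YY1 and SP1, are known regulators of nuclear subunit genes.

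The RNA came from N2A, an established cell line of mouse neuroblastoma, harvested 48 hours after small interfering RNA pools were introduced by lipofection. One experiment held 1 library each after joint depletion of Mbnl1 and Mbnl2 (muscleblind RNA-binding splicing regulators), after depletion of Nacc1 (a BTB-domain transcriptional regulator) and after a non-targeting pool (siNT). A separate experiment held 2 libraries each after depletion of Srrm4 (a regulator of neuronal microexons), after depletion of Zfp871 (a zinc finger protein) and after siNT; the column names letter these libraries a and b. Each knockdown was compared with the siNT of its own experiment, and the Srrm4 and Zfp871 comparisons share their 2 control libraries.

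Total counts ranged from 44186088 to 63715449 a library. The targeted mRNAs were lower in their own libraries: Srrm4 was at 28.3 and 26.1 CPM (counts scaled to a common library total with TMM factors) against 66.8 and 96.7 in control, Zfp871 at 7.17 and 5.08 against 17.6 and 26.2, Mbnl1 at 45.2 against 124, Mbnl2 at 18.2 against 65.7 and Nacc1 at 52.0 against 208. Srrm4 was also at 44.9 and 53.7 CPM in the Zfp871 knockdown libraries. Summed CPM of neuroblastoma and neuronal markers was 3566 to 4335, and no marker list of glia, fibroblasts, immune, epithelial, endothelial or muscle cells summed to more than 7.85 CPM in any library. Whether a group's libraries are separate cultures is not stated in the labels, so p-values measure only the spread between these libraries, which may be technical. The transcripts of many subunits have near-identical pseudogene copies, and the sources used here do not give how reads matching several places were counted, so single values carry that uncertainty.

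Promoter sequences were matched for 72 of the 87 members, 66 of them subunits with 71 promoters, in RefSeq's windows of 250 bases before to 50 after an annotated start (GRCm38.p6). The NRF1 core GCGCATGC, on either strand, stood in 14.1% of subunit promoters and in 3.51% of the 21262 promoters of all protein-coding genes. For the core CCGGAAG of GABPA and other ETS factors the shares were 22.5% and 11.6%, for the YY1 core AAGATGGCG 9.86% and 1.83%, and for the SP1 core GGGCGG 39.4% and 46.2%. None of these letter strings holds another, and a match is a description of the letters, not of binding. The sequences from 120 bases before to 30 after the start are printed for 3 of the 4 genes called higher after Srrm4 depletion. For the other, Uqcrq, no promoter window was matched, so its sequence was not examined. Also printed are Uqcrh, which differed between the Srrm4 and Zfp871 knockdowns, and the subunits of complexes II and V with the highest fold change after Srrm4 depletion. Capitals mark a match to any of the 4 cores on either strand, and for Ndufa7, with 2 annotated starts, the upstream one was taken.
Uqcr10, chr11:4704315-4704464, minus strand: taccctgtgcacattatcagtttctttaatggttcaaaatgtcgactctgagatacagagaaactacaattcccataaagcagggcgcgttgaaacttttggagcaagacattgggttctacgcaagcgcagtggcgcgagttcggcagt
Uqcrfs1, chr13:30545287-30545436, minus strand: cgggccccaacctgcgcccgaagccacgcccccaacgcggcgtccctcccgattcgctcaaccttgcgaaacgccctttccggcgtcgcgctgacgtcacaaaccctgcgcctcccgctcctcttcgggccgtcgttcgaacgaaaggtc
Ndufa7, chr17:33824452-33824601, plus strand: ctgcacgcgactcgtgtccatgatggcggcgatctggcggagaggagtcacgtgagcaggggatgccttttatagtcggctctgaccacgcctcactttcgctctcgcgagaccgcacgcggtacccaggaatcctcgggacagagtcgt
Uqcrh, chr4:116075041-116075190, minus strand: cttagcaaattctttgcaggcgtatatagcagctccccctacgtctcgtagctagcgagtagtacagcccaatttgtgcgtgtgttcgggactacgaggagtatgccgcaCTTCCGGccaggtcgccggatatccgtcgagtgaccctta
Sdhd, chr9:50603820-50603969, minus strand: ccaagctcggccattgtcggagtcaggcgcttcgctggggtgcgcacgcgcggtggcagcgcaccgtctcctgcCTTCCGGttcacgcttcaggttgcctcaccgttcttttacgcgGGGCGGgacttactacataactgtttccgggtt
Atp5e, chr2:174464072-174464221, minus strand: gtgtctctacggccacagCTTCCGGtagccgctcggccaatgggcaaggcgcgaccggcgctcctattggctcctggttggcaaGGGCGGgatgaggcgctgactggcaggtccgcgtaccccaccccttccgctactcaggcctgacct
The printed windows of Uqcr10, Uqcrfs1 and Ndufa7 held none of the 4 strings. Uqcrh held the ETS core just before its start, and Sdhd and Atp5e each held an ETS and an SP1 core.

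Per-length levels in the control libraries (the authors' own mean of corrected RPKM over both siNT libraries of the second experiment) ran over a wide range. The median over subunits was 88.5 for complex I, 90.8 for complex II, 148 for complex III, 140 for complex IV and 337 for complex V. Atp5b, the catalytic beta subunit of the ATP synthase, was highest of all at 1805, and Cox4i1, the common isoform of the largest nuclear-encoded complex IV subunit, led complex IV at 739. The lowest were the tissue isoforms Cox7a1 at 4.76 and Cox6a2 at 4.89, both known from muscle, followed by the hypoxia-linked Ndufa4l2 at 6.14 and Cox4i2 at 6.33, and by Ndufb2, an accessory subunit of complex I, at 6.41.

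After Srrm4 depletion the subunit mRNAs of the 5 complexes lay slightly above control in nearly every case. The summed level of the 80 subunits was 17113 and 18243 CPM in the Srrm4 knockdown libraries, against 14683 and 14928 CPM in the controls and 16118 and 16746 CPM in the Zfp871 knockdown libraries. The groups did not overlap, and the Srrm4 libraries were highest. The log2 fold change was positive for 77 of 80 subunits with a median of 0.29, while it was positive for 50% of all 12378 genes tested, whose median was close to 0. Between the libraries with letter a alone the median was 0.25, and between those with letter b it was 0.33. Both Srrm4 libraries lay above both controls for 57 of 80 subunits, against 27.3% of all genes. The exceptions in sign were Ndufa12, the core subunit Ndufs8 and Cox6a2, at -0.19, -0.13 and -0.24 (log2), none of which passed the test.

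**Figure D1:**
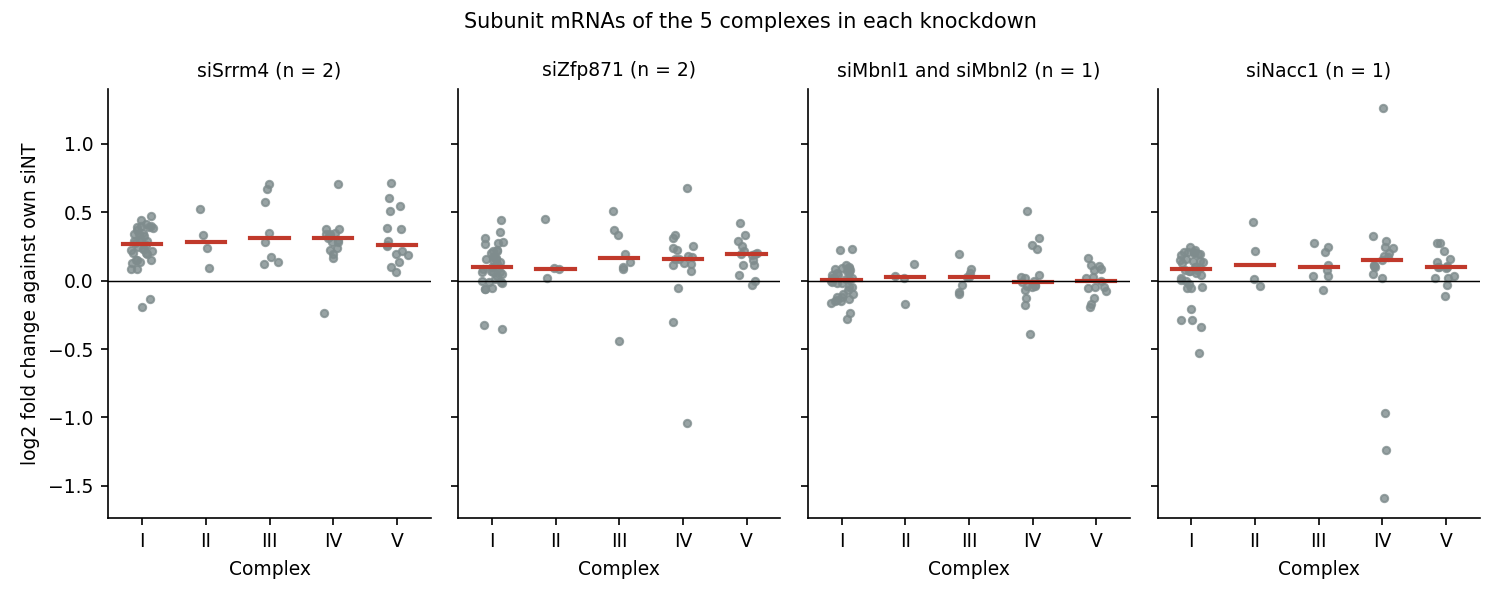
Log2 fold change of each of the 80 subunits (grey points) against the siNT of its own experiment, grouped by complex, with the median of each complex as a red line; n is the number of libraries in the knockdown group. After Srrm4 depletion nearly all points lie above 0 in every complex, and after depletion of Mbnl1 and Mbnl2 they are centred near 0.

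Without the library letter in the fit, only a few of these small differences passed the test for single genes. By edgeR's quasi-likelihood test, fitted with no term for the library letter and with Benjamini-Hochberg adjustment over all tested genes (called at an adjusted p under 0.05), 4 members were higher and 1 was lower after Srrm4 depletion, where 1.41% of all genes were called higher and 3.29% lower. At an unadjusted p under 0.05 the number of members was 42, against 24.8% of all genes, and DESeq2's Wald test called 28, against 15.7%. With the letter as a replicate block, edgeR called 55 members higher and 1 lower, where 36.9% of all genes were called. What libraries of one letter share is not given. In the authors' deposited table, 11 members were higher and 1 lower at an FDR under 0.05, where 2.36% of all its genes were higher and 4.54% lower. Leaving out any 1 of the 6 libraries of the experiment, controls or Zfp871 knockdown included, left 0 of the 5 calls (edgeR adjusted p from 0.0620 to 0.256), where 0 to 1.43% of all genes were called. The same held in a fit of the 4 libraries of the contrast alone (0.0810 to 0.0987), where 0% of all genes were called. The fold changes of the 5 genes kept their direction in each of these fits. This could hardly turn out otherwise, since for each gene both Srrm4 libraries lay on one side of both controls.

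Of the called genes, 3 belong to complex III, which takes electrons from ubiquinol to cytochrome c. Uqcrq, a small accessory subunit, was at 150 and 167 CPM in control and at 244 and 273 CPM after Srrm4 depletion. Both knockdown libraries lay well above both controls, and Uqcrq rose by 0.70 on the log2 scale (SE 0.12, edgeR adjusted p = 0.0341). Uqcr10, another accessory subunit, went from 45.1 and 51.6 CPM to 72.4 and 81.2 CPM, a log2 fold change of 0.67 (SE 0.12, edgeR adjusted p = 0.0400). Uqcrfs1, the Rieske iron-sulfur protein that carries out the electron transfer, went from 106 and 123 CPM to 164 and 178 CPM, a log2 fold change of 0.58 (SE 0.10, edgeR adjusted p = 0.0384). For both genes the groups did not overlap. The core proteins Uqcrc1 and Uqcrc2 and the accessory subunit Uqcrb were at 0.14, 0.17 and 0.12 (log2), the lowest values of the complex, and did not pass the test. Uqcr11 was at 0.35 and Uqcrh at 0.28, also without passing it. The median of the 8 subunits was 0.31.

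In complex I, which oxidises NADH, Ndufa7 passed the test. Its level was 74.1 and 70.0 CPM in control and 98.7 and 97.7 CPM after Srrm4 depletion, and it rose by 0.45 on the log2 scale (SE 0.08, edgeR adjusted p = 0.0416). The accessory subunits Ndufb11 (0.41, edgeR adjusted p = 0.0510), Ndufa9 (0.40, 0.0534), Ndufa13 (0.40, 0.0539) and Ndufb7 (0.39, 0.0576) lay just outside the threshold. Ndufs7, an iron-sulfur subunit of the catalytic core, had the highest fold change of the complex at 0.48 (SE 0.15) but an adjusted p of 0.125 by edgeR. The log2 fold change was positive for 6 of 7 core and 28 of 29 accessory subunits, with medians of 0.26 and 0.27.

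All 4 genes of complex II, the succinate dehydrogenase that links the tricarboxylic acid cycle to the chain, were positive and none passed the test. Sdhd, a membrane anchor, was at 116 and 140 CPM in control and at 172 and 195 CPM after Srrm4 depletion. These groups did not overlap, and the log2 fold change was 0.52 (SE 0.13, edgeR adjusted p = 0.0687). Sdhc, the other anchor, was at 0.33, the iron-sulfur subunit Sdhb at 0.23 and the flavoprotein Sdha at 0.09.

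In complex IV, cytochrome c oxidase, 16 of 17 subunits were positive with a median of 0.31. By edgeR's test 0 passed, with 8 at an unadjusted p under 0.05, against 24.8% of all genes. The common isoforms were close together: Cox4i1 was at 0.31, Cox6a1 at 0.19, Cox6b1 at 0.16, Cox7a2 at 0.38, Cox8a at 0.34 and Ndufa4 at 0.35 (edgeR adjusted p = 0.0563). Cox7a2l, a relative of Cox7a2 that takes part in supercomplexes, was at 0.29. The rarely used Cox7a1 and Cox6a2 were the highest and lowest of the complex, at 0.71 (SE 0.58) and -0.24 (SE 0.23), with errors as wide as the group differences or nearly so.

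All 15 subunits of complex V were positive with a median of 0.26. By edgeR's test 0 passed, with 8 at an unadjusted p under 0.05, against 24.8% of all genes. Atp5e, the epsilon subunit of the central stalk, was highest at 0.71 (SE 0.23), from 8.70 and 13.9 CPM to 17.1 and 19.9 CPM, with an edgeR adjusted p of 0.121. Its groups did not overlap, but its control libraries differed by more than its knockdown libraries did. Atp5a1, the alpha subunit of the catalytic head, was lowest at 0.07. The median was 0.19 over the 5 subunits of the head and central stalk and 0.33 over the 10 of the membrane part and peripheral stalk, a difference that was not tested. Of the genes for the membrane ring, which encode the same mature protein, Atp5g1 was at 0.55, Atp5g2 at 0.22 and Atp5g3 at 0.20, without passing the test. The membrane subunits Atp5l and Atp5k were at 0.60 and 0.51 (edgeR adjusted p = 0.0735 and 0.0989).

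The gene called lower was no subunit. Atp5sl was at 16.1 and 15.6 CPM in control and at 9.83 and 8.71 CPM after Srrm4 depletion, and it fell by 0.77 on the log2 scale (SE 0.15, edgeR adjusted p = 0.0450). Among the other members outside the complexes Atp5s was highest at 0.52 (SE 0.15, edgeR adjusted p = 0.104). The assembly factors Ndufaf1, Ndufaf2, Ndufaf3 and Ndufaf4 were at 0.30, -0.24, -0.12 and 0.18, and Cox4nb was at 0.01. None of these passed the test.

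**Figure D2:**
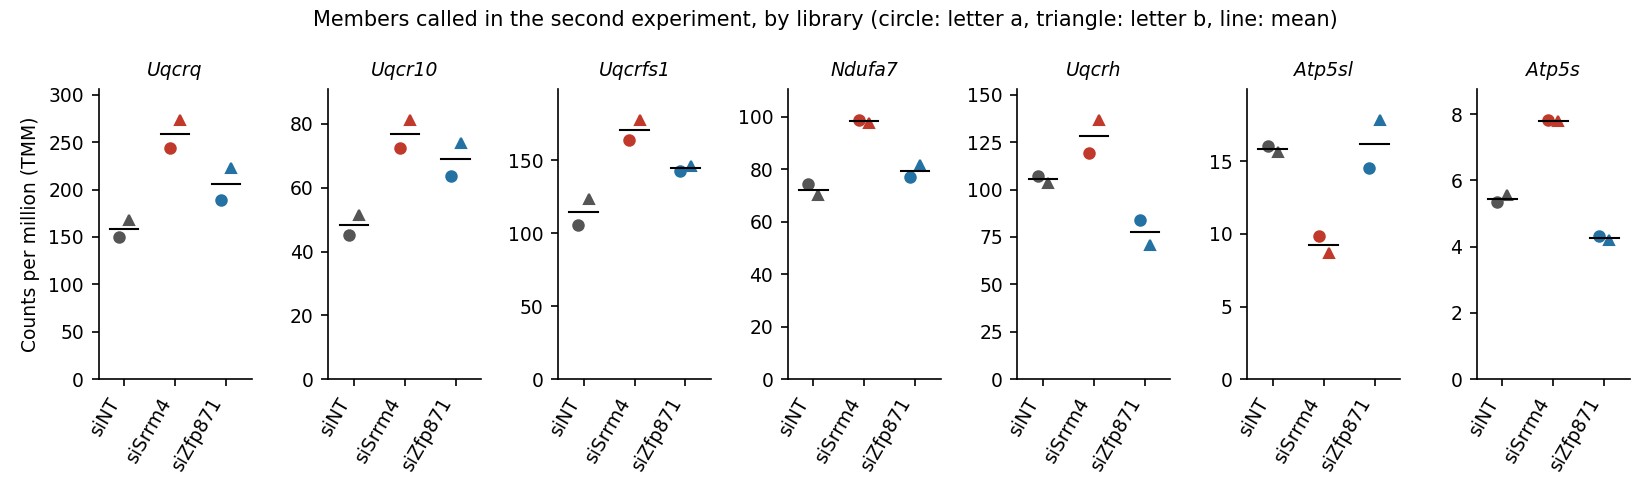
CPM (linear axes from 0, scaled for each gene) of the 7 members called in any comparison of the second experiment, with 1 point a library (circles for letter a, triangles for letter b) and a line at the mean of each group. Uqcrq, Uqcr10, Uqcrfs1 and Ndufa7 are highest in the Srrm4 knockdown, Atp5sl is lowest there, and Uqcrh and Atp5s lie below control in the Zfp871 knockdown and above it in the Srrm4 knockdown.

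After Zfp871 depletion the subunits leaned the same way by less. The log2 fold change was positive for 66 of 80 subunits with a median of 0.14, and of 0.15 within each letter, against 48.4% positive and a median of -0.01 over all genes. Both libraries lay above both controls for 41 of 80 subunits, against 25% of all genes. By edgeR's test 0 of the 87 members were called, where 0.751% of all genes were higher and 2.14% lower. At an unadjusted p under 0.05 there were 16, against 21.1% of all genes, and DESeq2's Wald test called 9, against 11.8%. These shares of the members do not exceed the background. In the authors' deposited table Uqcr10 and the core subunit Ndufv2 were higher and 0 members lower at an FDR under 0.05, where 1.81% of all its genes were higher and 3.22% lower. The highest of each complex were Ndufv2 at 0.44, Sdhd at 0.45, Uqcr10 at 0.51, Cox7a1 at 0.67 and Atp5l at 0.42. The lowest subunits were Ndufv3 at -0.35, Sdhb at 0.02, Uqcrh at -0.44, Ndufa4l2 at -1.04 (SE 1.66) and Atp5d at -0.03. The assembly factor Ndufaf2 was at -0.46 and Atp5s at -0.35.

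The Srrm4 and Zfp871 knockdowns were also compared with each other, with no control library in the contrast. The fold change of Zfp871 over Srrm4 depletion was positive for 12 of 80 subunits with a median of -0.15, against 48.7% positive over all genes. By edgeR's test 1 member was called higher and 2 lower, where 5.53% of all genes were higher and 5.57% lower. The members' share does not exceed this background. Uqcrh, the hinge protein of complex III, was at 119 and 137 CPM after Srrm4 depletion and at 84.1 and 71.0 CPM after Zfp871 depletion, with controls at 107 and 104 CPM between them. It was lower in the Zfp871 knockdown by -0.72 (log2, SE 0.12, edgeR adjusted p = 0.0198), whereas its fold change against control was 0.28 in one knockdown and -0.44 in the other, neither called. Atp5s was at 7.82 and 7.79 CPM after Srrm4 depletion and at 4.33 and 4.21 CPM after Zfp871 depletion, with controls at 5.33 and 5.55 CPM. The 3 groups did not overlap, and the difference was -0.87 (log2, SE 0.15, edgeR adjusted p = 0.0246). Atp5sl was at 14.5 and 17.8 CPM after Zfp871 depletion, around its control level, and differed from the Srrm4 knockdown by 0.81 (log2, SE 0.15, edgeR adjusted p = 0.0278). Each call rests on 2 libraries a group. With any 1 of the 6 libraries left out, the fold change was -0.84 to -0.59 for Uqcrh and -0.88 to -0.83 for Atp5s. For Atp5sl it was 0.67 to 0.95. A group left with 1 library takes its spread from the other groups, so such fits cannot decide whether a call holds.

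The mitochondrially encoded partners of the subunits had medians near control, but by letter they moved in opposite directions after Srrm4 depletion. Over these 12 genes the median was 0.03 after Srrm4 depletion and -0.09 after Zfp871 depletion. Between the libraries with letter a it was -0.15 and -0.20, and between those with letter b 0.19 and -0.01, in the same order. By edgeR 0 were called in either comparison, with 0 and 1 at an unadjusted p under 0.05. Their summed level was 35333 and 47438 CPM in control and 32146 and 53949 CPM in the Srrm4 knockdown, higher in the library with letter b in every group. Single genes lay between -0.18 (mt-Nd2) and 0.25 (mt-Co3) after Srrm4 depletion, and between -0.21 (mt-Co1) and 0.28 (mt-Nd3) after Zfp871 depletion. Of 27 tested assembly factors outside the members, Foxred1, an assembly factor of complex I, rose by 0.46 (edgeR adjusted p = 0.0416) after Srrm4 depletion, with a list median of 0.21. The complex II factor Sdhaf1 was highest at 1.08 and Cox10, which makes heme for complex IV, lowest at -0.31, and neither passed the test. The 22 electron carriers and exchangers had a median of 0.19 and the 18 genes of the tricarboxylic acid cycle 0.09, with 0 called in each by edgeR and 9 in each at an unadjusted p under 0.05, where the share of all genes was the 24.8% given above. Their extremes were Coq2 of ubiquinone synthesis at 0.41 and the uncoupling protein Ucp2 at -0.68, and the dehydrogenase subunits Dld at 0.43 and Ogdh at -0.53. The 14 tested regulators of mitochondrial genes, from Tfam, which packs mitochondrial DNA, at 0.28 to Myc at -0.48, had a median of 0.03 and 0 calls, with 5 at an unadjusted p under 0.05.

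The mitochondrial ribosome, which translates the mitochondrially encoded subunits, had 1 gene called higher and 4 lower after Srrm4 depletion, beside 1.41% and 3.29% of all genes. Of its 76 genes, Mrps33 rose by 0.46, while Mrps25, Mrpl19, Mrpl42 and Mrps15 fell by 0.94, 0.87, 0.68 and 0.65 (log2, edgeR adjusted p = 0.0416 for Mrps33 and 0.0196 to 0.0345 for the others). The list median was 0.13, with Mrpl36 highest at 0.67. Of 20 import genes Tomm7, a subunit of the outer membrane translocase, rose by 0.52 (edgeR adjusted p = 0.0367), and the extremes Timm10 and Timm9 were at 0.54 and -0.30. After Zfp871 depletion the called genes of these lists were Pdss1, which acts in ubiquinone synthesis, at -1.27, Mrpl30 at -0.84, the import chaperone Timm8b at 0.63 and the pyruvate dehydrogenase subunit Dlat at 0.44 (edgeR adjusted p = 0.0232, 0.0481, 0.0355 and 0.0486). The list medians were then 0.13 for assembly factors (Uqcc 0.43, Cox16 -0.30), 0.09 for carriers (Etfdh 0.33), 0.14 for the tricarboxylic acid cycle (Suclg2 -0.15), -0.04 for regulators (Tfam 0.47, Ppargc1b -0.26), 0.15 for the mitochondrial ribosome (Mrps6 0.50) and 0.17 for import (Timm9 -0.51), with the extremes in parentheses not called. The 82 genes of the cytosolic ribosome, of which Rpl29 fell by 0.96 (edgeR adjusted p = 0.0325) after Srrm4 depletion, had a median of 0.15 after Srrm4 depletion and 0.00 after Zfp871 depletion.

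Transcript length moved with the fold change across all genes. Subunit transcripts are short, with a median of 870 nt for the longest protein-coding transcript (GENCODE M21) against 3153 nt over tested genes. Among genes other than the subunits, the median log2 fold change after Srrm4 depletion was 0.12 up to 1000 nt, 0.07 from there to 2000 nt, 0.01 to 4000 nt and -0.08 above. After Zfp871 depletion these medians were 0.03, 0.05, 0.01 and -0.08. For 131 other genes that were both short and at 50 or more CPM in control, the medians were 0.10 and 0.05, below the 0.29 and 0.14 of the subunits. The part of length in the subunits' values was not tested.

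**Figure D3:**
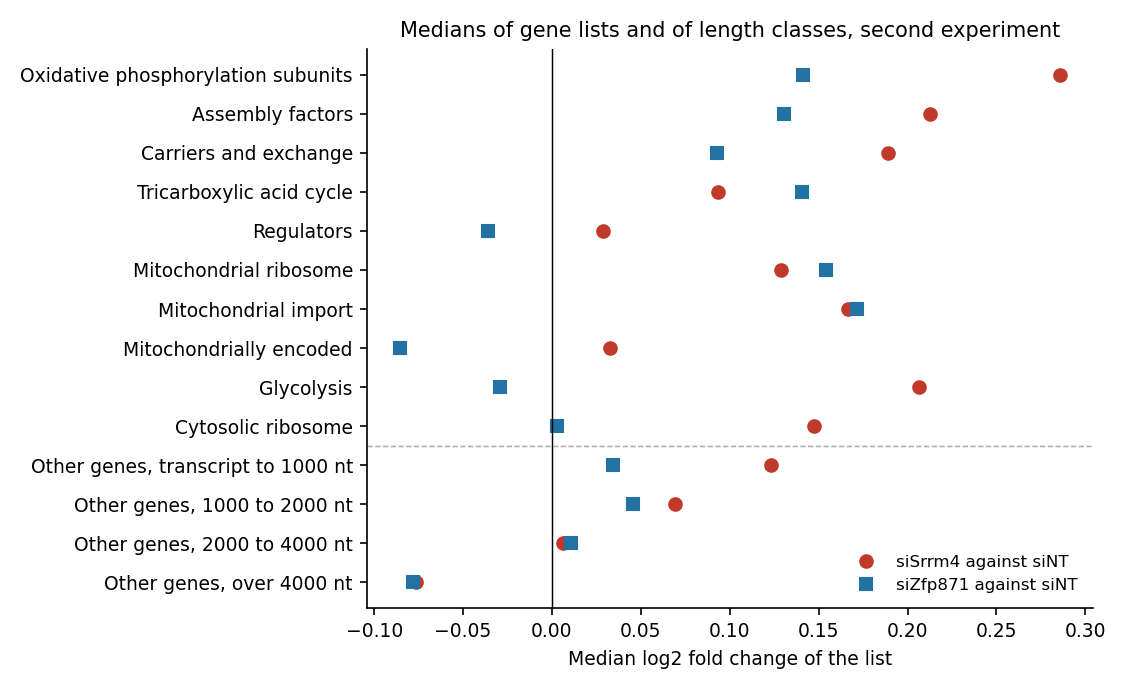
Median log2 fold change of each gene list (above the dashed line) and of genes other than the subunits by transcript length (below it), for Srrm4 depletion (circles) and Zfp871 depletion (squares) against the shared siNT libraries. After Srrm4 depletion the subunits have the highest median plotted, 0.29, while the regulators and the mitochondrially encoded genes lie near 0, both at 0.03.

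A pair of complex IV isoforms differed far more between libraries of the same group than between knockdowns. Ndufa4l2, whose product is known as a hypoxia-induced relative of Ndufa4, was at 10.6 and 0.480 CPM in control libraries a and b, at 13.1 and 0.836 CPM after Srrm4 depletion and at 4.85 and 0.536 CPM after Zfp871 depletion. Cox4i2, the hypoxia-linked isoform of Cox4i1, was at 7.32 and 1.17 CPM, 9.43 and 0.936 CPM, and 5.43 and 1.45 CPM in the same order. In every group the library with letter a was the higher, by at least 9.04 times for Ndufa4l2 and 3.74 times for Cox4i2. Cox7a1 followed at 1.78 times or more, whereas the common isoform Cox4i1 was at 454 and 476 CPM in control and differed little by letter. Neither isoform could be distinguished between knockdown and control, with standard errors of 1.62 and 1.66 (log2) for Ndufa4l2 and 1.21 and 1.22 for Cox4i2. The summed level of the 17 glycolysis genes in the table was split the same way, at 12360 and 8030 CPM in control, 14241 and 8145 CPM after Srrm4 depletion and 11291 and 8635 CPM after Zfp871 depletion. Of the 16 tested, 0 were called by edgeR in either comparison, with 0 and 1 at an unadjusted p under 0.05, medians of 0.21 and -0.03, and Gapdh highest (0.79 and 0.96) and Aldoc lowest (-0.33 and -0.88). The sources used here do not give what libraries of one letter share, and in bulk RNA fewer cells expressing a gene and less RNA per cell cannot be told apart.

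**Figure D4:**
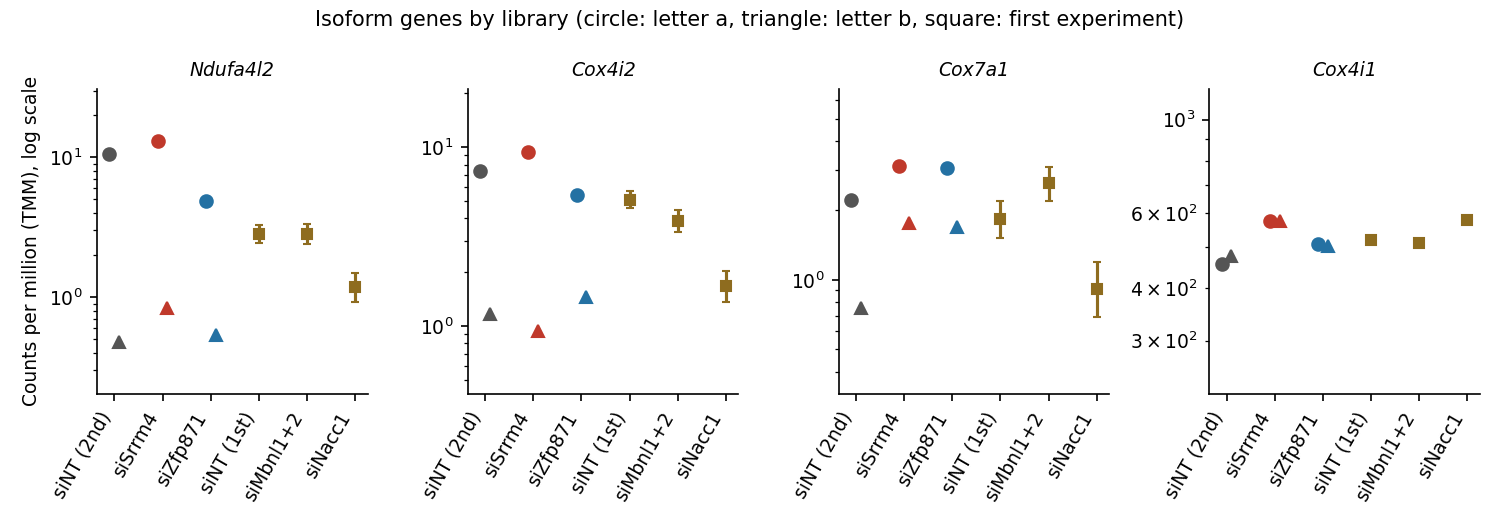
CPM on a log axis of Ndufa4l2, Cox4i2, Cox7a1 and the common isoform Cox4i1 in each library (circles for letter a, triangles for letter b, squares for the first experiment with exact Poisson intervals for counting error). Ndufa4l2 and Cox4i2 are higher in every library with letter a than in any with letter b. In the first experiment both are lower in the Nacc1 knockdown than in its siNT.

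The first experiment has 1 library a group, so it allows no test. A member was taken as past the fold at a log2 fold change of 0.5 or more in size with a count of 50 or more in either library, and intervals cover counting error only. After depletion of Mbnl1 and Mbnl2 the subunits sat near their control level with TMM factors. Of the 80, 40 were positive with a median of 0.01, and the summed level was 15192 CPM against 14964 CPM. Before scaling they made up 1.57% of counts, against 1.48% in siNT and 1.58% after Nacc1 depletion. With library size only, the median over all 87 members was 0.057. Only Cox7a1 was past the fold, at 0.51, where 4.26% of all genes were past it upward and 3.58% downward. Cox7a1 was at 2.62 CPM (95% interval 2.19 to 3.10) against 1.83 CPM (1.51 to 2.20) in control, and these intervals overlap. The highest of the other complexes were the assembly factor Ndufaf3 at 0.30, Sdhc at 0.12, Uqcr10 at 0.20 and Atp5g1 at 0.16. The lowest were Ndufv3 at -0.28, Sdha at -0.17, Uqcr11 at -0.10, Cox4i2 at -0.39 and Atp5g2 at -0.19. The 12 mitochondrially encoded genes had a median of -0.25 in this library.

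After Nacc1 depletion most subunits were slightly positive, 63 of 80 with a median of 0.10, against 52.2% and 0.01 over all genes. Other lists leaned up as well, such as import (80% positive) and the cytosolic ribosome (70%), whereas glycolysis did not (6.67%). The members past the fold were mainly low-level isoforms of complex IV. The summed level was 16034 CPM. Past the fold, 1 member was higher and 4 were lower, where 2.93% of all genes were past it upward and 10.5% downward. Cox6a2, the heart and skeletal muscle isoform, was at 8.15 CPM (95% interval 7.44 to 8.90) against 3.39 CPM (2.95 to 3.87) in control, a log2 fold change of 1.26, while Cox6a1 was at 0.10. Cox4i2 was at 1.67 CPM (1.36 to 2.03) against 5.09 CPM (4.55 to 5.68), a log2 fold change of -1.59, while Cox4i1 was at 0.15. Ndufa4l2 was at 1.18 CPM (0.924 to 1.49) against 2.83 CPM (2.43 to 3.28), at -1.23, while Ndufa4 was at 0.18. Cox7a1 was at 0.916 CPM (0.690 to 1.19) against 1.83 CPM (1.51 to 2.20), at -0.97, while Cox7a2 was at 0.02. The rare isoform of each pair was picked here for being past the fold, and the common one was not past it. That the common isoform was the closer to control follows from this choice, which also favours intervals that lie apart. The intervals of the rare isoform did not overlap. Ndufb4, an accessory subunit of complex I, was at 39.7 CPM (38.1 to 41.3) against 57.4 CPM (55.5 to 59.3), at -0.53. Of the remaining extremes, Ndufaf1 was at 0.29, Sdhd at 0.43 and Sdha at -0.04, Uqcr10 at 0.28 and Uqcrb at -0.07, and Atp5k at 0.28 and Atp5d at -0.11. The glycolysis list had a median of -0.49 in the same comparison, with 6 of 15 genes past the fold and lower. Between libraries of one group in the second experiment Ndufa4l2 and Cox4i2 differed by as much or more. Cox7a1 did so between the control libraries, at 2.22 and 0.751 CPM, but not within the knockdown groups. The values of these isoforms here have no replicate check.

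Set against each other, the Nacc1 and Mbnl knockdown libraries differed past the fold in 5 members, Cox6a2 higher at 0.95 and Ndufb4, Cox4i2, Ndufa4l2 and Cox7a1 lower at -0.51, -1.20, -1.23 and -1.48. The shares over all genes were 5.42% upward and 12.2% downward. The median over subunits was 0.10, against 0.03 over all genes.

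Splicing of the members, measured as PSI, the percent of a segment's inclusion and exclusion reads that support including it, showed no called event. In the second experiment 34 cassette exons of 20 member genes had at least 10 reads in every library. By edgeR's test on inclusion and exclusion reads (called at an adjusted p under 0.05 and 10 points or more), 0 were called after Srrm4 depletion, where 0.123% of 20266 exons were called, and 0 after Zfp871 depletion, where 0% were. At an unadjusted p under 0.05 there were 1 and 2, against 5.71% and 4.67% of all exons, and limma on logit PSI called 0 in either. The largest differences were in Atp5s, with few reads. Its 111-nt exon (chr12:70838938-70839048, mm9) was at 46.7 and 61.9% in control and at 69.6 and 60.7% after Srrm4 depletion, from 51 to 94 reads, a difference of 10.8 points with overlapping groups (edgeR adjusted p = 0.891). Its 90-nt exon (chr12:70826452-70826541, mm9) was at 22.6 and 24.4% in control and at 38.4 and 35.3% after Zfp871 depletion, from 23 to 38 reads, a difference of 13.4 points without overlap (edgeR adjusted p = 0.900). Of 30 retained introns in 17 member genes, limma (adjusted p under 0.05 and 5 points or more) called 0 after either knockdown, as it did over all 28100 introns (0%), with 1 and 2 members at an unadjusted p under 0.05, against 6.04% and 6.2% of all introns. The largest difference was in a 720-nt intron of Ndufs8 (chr19:3911747-3912466, mm9), at 0 and 1.76% in control, 0 and 12.8% after Srrm4 depletion and 0 and 24.6% after Zfp871 depletion. Its PSI was above 0 only in libraries with letter b, and it rests on few reads, 17 to 56 a library.

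In the first experiment 28 cassette exons of members had at least 20 reads in each library, and 0 differed by 10 points or more with intervals apart, against 2.49% of 17503 exons after depletion of Mbnl1 and Mbnl2 and 2.64% after Nacc1 depletion. The largest differences were in a 104-nt exon of Ndufs1, a core subunit of complex I (chr1:63218728-63218831, mm9), at 31.5% (26.5 to 36.8) against 37.9% (33.4 to 42.7) after depletion of Mbnl1 and Mbnl2, and in an 88-nt exon of Ndufa12, an accessory subunit (chr10:93666033-93666120, mm9), at 28.1% (17.6 to 39.1) against 19.4% (12.0 to 29.8) after Nacc1 depletion. Both pairs of exact binomial intervals overlapped.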

How the data were processed

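Per the file headers, the authors gave each gene a raw read count and a corrected RPKM. Their deposited log2 fold changes and, for the second experiment, p-values (as FDR) stand beside these. The deposited splicing tables hold PSI in percent and inclusion and exclusion reads, from which PSI was recomputed. Per the submitters' processing notes the build was mm9 and the tools were CASAVA 1.8 and edgeR; the sources used here do not give the gene counter or aligner. RNA was extracted with either of a pair of kits, per the labels, which do not say which library had which.

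Counts of the second experiment were fitted with edgeR 4.0.16 (R 4.3.3): filterByExpr, TMM factors, quasi-likelihood test over all 6 libraries without a replicate block, Benjamini-Hochberg over 12378 genes. First-experiment fold changes used TMM and a prior count of 2. Exons were tested with edgeR and introns with limma 3.58.1 (logit PSI, offset 1). DESeq2 1.42.0, other factors, filters and library sets were alternatives. Scripts were tested on simulated data. The members and lists were chosen with earlier results of these data known. Named genes are called members, the highest and lowest of each complex and knockdown, complex II, the isoform sets, the events with the largest differences, and the called genes and extremes of further lists (given for the second experiment only); Ndufb11, Ndufa9, Ndufa13, Ndufb7, the Uqcr genes in full, Atp5k, Ndufa12 and Ndufs8 were named after their values were seen. Not used were 14 columns of values per library (RPKM and PSI of the second experiment, and a trimmed version of control library a). Fold changes are on the log2 scale. Total counts were 44186088 to 63715449 a library.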

Additional observations from a re-analysis of the deposited data

Results flagged for a closer look

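The Srrm4 and Zfp871 knockdowns differed from each other in 3 members of 87 by edgeR's quasi-likelihood test of that difference. Over all genes 5.53% were higher and 5.57% lower, 11.1% in all, so the members' share does not exceed the background. Uqcrh, the hinge protein of complex III, was lower after Zfp871 than after Srrm4 depletion by -0.72 (log2, adjusted p = 0.0198). Atp5s, coupling factor B, was lower by -0.87 (adjusted p = 0.0246). Atp5sl, linked to complex I assembly, was higher by 0.81 (adjusted p = 0.0278). Each rests on 2 libraries a group, and a fit with 1 library left in a group cannot decide whether a call holds.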

How the results depend on the processing

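Medians over the members kept their direction under every alternative run in the second experiment. After Srrm4 depletion the median was 0.20 to 0.33 when 1 library was left out, lowest without the Srrm4 library b. Calls moved more: of 5 members called after Srrm4 depletion, edgeR called 8 with no filter (4.88% of all genes), 10 with at least 50 counts in every library (6.74%) and 0 with only the 4 libraries of the contrast or with any 1 library left out, and DESeq2 called 28 (15.7%). With library size only as scaling Atp5sl was no longer called (adjusted p = 0.0504). After Zfp871 depletion DESeq2 called 9 in place of 0 (11.8%). Between the knockdowns DESeq2 called 7 in place of 3 (20.2%), and the subunits alone held 1. The cause of these moves was not tested.

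The letters a and b are not tied to the labels' replicate numbers. Deviations from the group means correlated by letter at 0.749, 0.662 and 0.637 over the 3 pairs of groups. With the letter as a replicate block edgeR called 56 members after Srrm4 depletion (55 higher), 26 after Zfp871 depletion and 29 between the knockdowns, where 36.9%, 31.1% and 41.9% of all genes were called. It called 0 exons and introns of members.

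In the first experiment, library size only turned the median after Mbnl depletion from -0.005 to 0.057 and moved that of Nacc1 over Mbnl from 0.11 to 0.045. A fold of 0.3 put 3, 8 and 13 members past it (20.8%, 29% and 36.3% of all genes), in place of 1, 5 and 5.

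Values after Zfp871 depletion near 0 turned: Atp5g2 was -0.0066 with library size only and -0.0087 with at least 50 counts. Leaving out 1 library gave -0.019 to 0.033 for Atp5g2, -0.078 to 0.19 for Atp5g3, -0.11 to 0.17 for Atp5sl, -0.0026 to 0.047 for Sdhb, -0.080 to 0.31 for Sdhc, -0.042 to 0.33 for Cox6a1 and -0.072 to 0.30 for Cox6a2. The isoforms that differ by letter moved furthest: Cox4i2 from -1.55 to 1.57 and Ndufa4l2 from -3.36 to 2.49, and after Srrm4 depletion Cox4i2 from -2.18 to 2.14 and Ndufa4l2 from -2.72 to 3.85 (log2). With 1 library left in a group, its spread is taken from the other groups. Low counts of these isoforms and 2 libraries a group limit what single genes can show.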
